A study of Mus musculus with 11 samples.

Results

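The J-domain co-chaperone genes of the mouse are named Dnaja, Dnajb and Dnajc after their structural class, and their promoters were examined for reads of an ST18 chromatin immunoprecipitation (ChIP). Every promoter window whose gene symbol starts with Dnaja, Dnajb or Dnajc and a number was taken, which gave 45 of the 21881 windows in the deposited table, 4 of class A, 13 of class B and 28 of class C. The series holds 11 mouse samples, of which 2 are ST18 ChIP libraries and 1 is their input, genomic DNA that was not immunoprecipitated. All 3 are labelled as made in vitro from brain cells of a source called TN, which the labels do not spell out, and all 3, the input included, carry a molecule label that reads HAChIP. The labels give no genotype, strain or agent for them, and repeat for them the electroporation protocol written for the 8 RNA samples, which were not analysed here. The table has 1 input column and 1 ST18 column, and which of the 2 ChIP libraries went into the ST18 column, or whether both did, is not stated, so no value below has a replicate.

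J-domain proteins bring substrates to Hsp70 chaperones and, through the J domain, stimulate the ATP hydrolysis by which Hsp70 closes on them. Class A proteins have the J domain at the amino end followed by a glycine- and phenylalanine-rich stretch and a zinc finger-like region, class B proteins lack the zinc finger-like region, and class C proteins share little beyond the J domain and are often tied to a single task in one compartment of the cell. ST18 belongs to the MYT1 family of zinc finger factors, whose members bind DNA at sites with the core AAGTT, and the title of the study calls it a transcriptional repressor of early cortical development. The family was chosen with earlier results of these counts known, so its enrichment is described and not tested.

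The RefSeq promoters (GRCm38.p6, 250 bases before to 50 after a start) of the 2 J-domain genes with the highest enrichment, Dnaja1 and Dnajb1, and of the lowest gene of class B, Dnajb4, and of class C, Dnajc19, are shown so that the windows behind the extremes can be seen. They are in order chr4:40722218-40722517 on the plus strand, chr8:83607925-83608224 on the plus strand, chr3:152210034-152210333 on the minus strand and chr3:34081305-34081604 on the minus strand. Where RefSeq lists several starts, the most upstream was taken, and the deposited windows of 1000 bp may lie on another start. Capitals mark the letters GAANNTTC or TTCNNGAA, a pair of facing units of the heat shock element to which heat shock factors bind, and AAGTT, each searched on both strands.
Dnaja1: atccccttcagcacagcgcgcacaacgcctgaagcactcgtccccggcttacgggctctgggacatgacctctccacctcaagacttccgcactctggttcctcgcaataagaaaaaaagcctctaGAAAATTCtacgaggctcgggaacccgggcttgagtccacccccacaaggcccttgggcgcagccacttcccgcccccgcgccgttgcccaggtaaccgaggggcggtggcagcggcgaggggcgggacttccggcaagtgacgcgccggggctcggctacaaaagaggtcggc
Dnajb1: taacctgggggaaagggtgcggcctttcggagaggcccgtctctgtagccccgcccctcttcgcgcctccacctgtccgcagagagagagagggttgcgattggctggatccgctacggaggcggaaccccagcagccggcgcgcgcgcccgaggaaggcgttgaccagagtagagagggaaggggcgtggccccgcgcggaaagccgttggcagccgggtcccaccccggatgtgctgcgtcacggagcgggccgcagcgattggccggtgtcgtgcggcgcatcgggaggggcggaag
Dnajb4: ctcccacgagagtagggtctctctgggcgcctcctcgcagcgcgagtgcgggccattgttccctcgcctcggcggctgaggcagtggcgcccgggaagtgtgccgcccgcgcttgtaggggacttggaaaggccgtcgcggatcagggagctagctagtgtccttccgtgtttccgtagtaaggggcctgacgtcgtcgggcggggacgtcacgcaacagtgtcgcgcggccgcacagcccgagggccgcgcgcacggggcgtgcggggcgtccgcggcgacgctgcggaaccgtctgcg
Dnajc19: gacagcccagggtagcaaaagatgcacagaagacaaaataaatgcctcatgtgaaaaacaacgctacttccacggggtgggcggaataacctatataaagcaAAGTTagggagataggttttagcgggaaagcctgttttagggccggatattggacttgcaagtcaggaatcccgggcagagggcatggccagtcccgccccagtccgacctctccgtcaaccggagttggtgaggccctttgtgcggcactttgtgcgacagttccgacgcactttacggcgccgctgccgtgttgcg
Dnaja1 holds GAAAATTC beginning 124 bases before this start, Dnajc19 holds AAGTT 148 bases before it, and the letters searched for are not in these stretches of Dnajb1 and Dnajb4, although at a second RefSeq start Dnajb1 holds AAGTT and Dnajb4 TTCNNGAA.

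The ST18 column held 438960 reads over all windows and the input column 160443, with medians of 20 and 7 reads per window. Before taking the log2 ratio the authors' values had 16 added to the scaled ST18 reads and to the input reads, so the deposited log2 enrichment is pulled towards 0 at these counts. A window with 7 input reads needs 46 ST18 reads, 2.40-fold the ST18 to input ratio of all promoters, to reach a log2 enrichment of 0.58. Each window is therefore also given as its fold of that ratio with an exact (Clopper-Pearson) 95% binomial interval, which covers counting error only, because no molecular identifiers are named for these reads, which need not be independent molecules.

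The family as a whole lay close to all promoters, and 2 genes stood at its upper end, Dnaja1 of class A and Dnajb1 of class B. The 45 windows held 1018 ST18 reads against 377 input reads, 0.987-fold the ratio of all promoters (0.876 to 1.11). Their median log2 enrichment was 0.02, against 0.04 over all promoters, and 20 of 45 (44.4%) lay above the second of these, as 49.6% of all promoters did. The range of the family was −0.43 to 0.90, inside that of all promoters, −0.76 to 1.21. A log2 enrichment of at least 0.58 was reached by 2 of the 45 (4.44%), against 1.15% of all promoters, and the opposite value of −0.58 by 0 of 45, against 0.219%. A log2 enrichment of 1 was reached by 0 of 45, against 0.0548%. At the lower value of 0.3 the family had 7 of 45 windows, against 2745 of the 21881, and at −0.3 it had 4 of 45, against 1255.

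**Figure D1:**
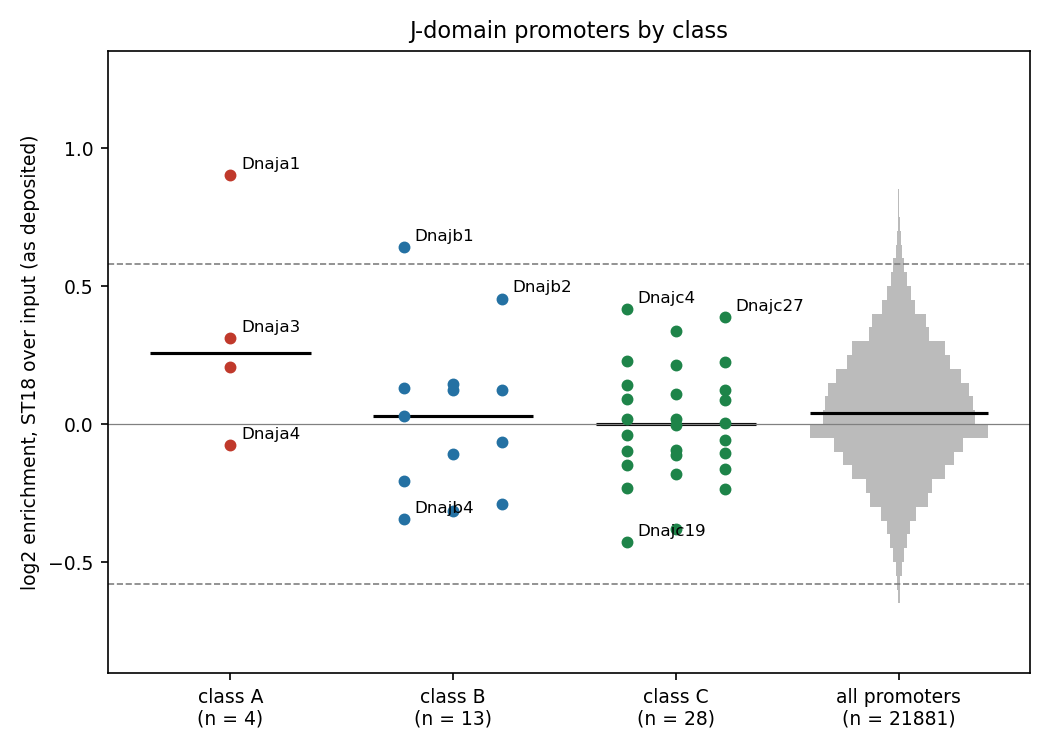
Deposited log2 enrichment of each J-domain promoter by class, beside the distribution over all 21881 promoters (grey, width scaled to its largest bin), with medians as black bars and dashed lines at 0.58 and −0.58. Class A has its median at 0.26, class B at 0.03, class C at 0.00 and all promoters at 0.04, and Dnaja1 and Dnajb1 lie above the upper dashed line.

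By class, the medians stood in the order A, B, C, and the difference between A and B was larger than that between B and C. Class A had a median log2 enrichment of 0.26 over 4 windows, class B 0.03 over 13 and class C 0.00 over 28, which puts A 0.23 above B and 0.26 above C, and B 0.03 above C. Summed over its windows, class A held 148 ST18 reads against 33 input reads, 1.64-fold the ratio of all promoters (1.12 to 2.47). Class B held 299 against 112 reads (0.976-fold, 0.783 to 1.22), and class C 571 against 232 (0.900-fold, 0.771 to 1.05), so both intervals include 1. Of the 148 ST18 reads of class A, 62 were in the window of Dnaja1. Without it the class stood at 1.16-fold (0.748 to 1.87), with 86 ST18 reads against 27 input reads, and its median at 0.21. Without Dnajb1, class B stood at 0.870-fold (0.690 to 1.10). The classes overlap widely: 3 of the 4 class A windows lie within the range of class B and 3 of 4 within that of class C, and 11 of the 13 class B windows within that of class C.

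In class A, Dnaja1 encodes a heat-inducible cytosolic partner of Hsp70. Its window, with 62 ST18 and 6 input reads, ranked 19 among all promoters, at a log2 enrichment of 0.90 and a fold of 3.78 (1.64 to 10.7). Its ST18 reads lay at the 99.9th percentile of all windows and its input reads at the 36.8th, so the window stands out in the ST18 column and not in the input column. Dnaja3 encodes Tid1, a co-chaperone of mitochondrial Hsp70, and held 34 against 8 reads (log2 0.31, 1.55-fold, 0.706 to 3.88). Dnaja2, a cytosolic class A protein, held 26 against 7 (0.21, 1.36-fold, 0.574 to 3.70). Dnaja4 had the same 26 ST18 reads as Dnaja2 but 12 input reads, and with them the lowest value of the class (−0.08, 0.792-fold, 0.386 to 1.72). All 3 of these intervals include 1.

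Dnaja1 has Mir207 as a close neighbour in the genome, and their windows may share reads. RefSeq places the hairpin of this microRNA within 1000 bp of a Dnaja1 start on the same strand, and its window held 72 ST18 reads against 4 input reads (log2 1.18, 6.58-fold, 2.46 to 24.8). The table gives no coordinates, so how many reads the windows share was not measured. Of the 37 J-domain genes with a RefSeq promoter, 5 were found to have a start of another gene of the table within 1000 bp. The search covered only microRNA hairpins and genes with a RefSeq promoter, which 67.1% of all windows had, so more may have a neighbour. The other 4 neighbours found, Fubp1, Slc30a3, Atpif1 and Zfyve19, start on the opposite strand. Dnajb4 held 13 ST18 against 11 input reads and its neighbour Fubp1 29 against 10 (log2 0.09). Dnajc17 (28 against 15) and Zfyve19 (22 against 18, log2 −0.45) were both below 0, as were Dnajc8 and Atpif1 (24 against 12, −0.12), whereas Slc30a3 (30 against 14, −0.09) and Dnajc5g (0.11) lay on either side.

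**Figure D2:**
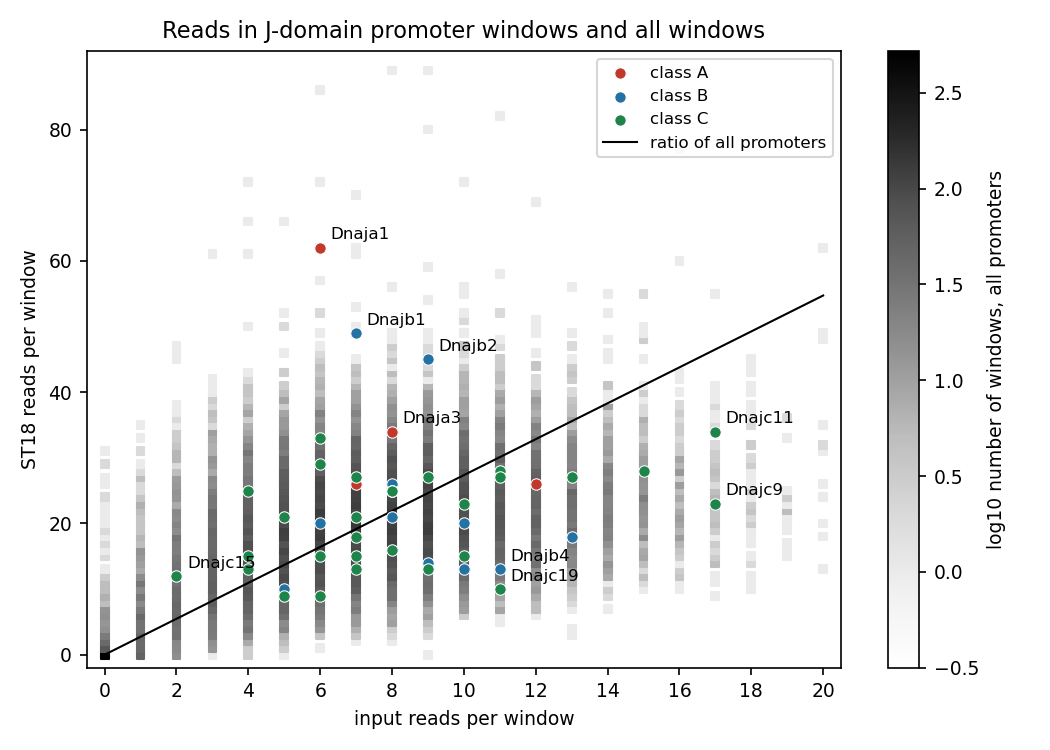
ST18 reads against input reads per promoter window, with J-domain genes coloured by class, all promoters as grey squares shaded by the log10 number of windows, and the line at the ratio of all promoters; genes with equal counts overlap and 34 windows lie beyond the axes. Dnaja1 (62 against 6 reads), Dnajb1 (49 against 7) and Dnajb2 (45 against 9) lie above the line, and Dnajc9 (23 against 17) and Dnajc19 (10 against 11) below it.

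In class B the spread was wider than the difference of its median from all promoters, with an SD of 0.29 over its 13 windows against 0.23 over all promoters. Dnajb1, the heat-inducible Hsp40 that works with cytosolic Hsp70, held 49 ST18 and 7 input reads, which gave a log2 value of 0.64 and a fold of 2.56 (1.15 to 6.70). Its input reads equal the median of all windows, while its ST18 reads lay at the 99.7th percentile. Dnajb2, a co-chaperone enriched in neurons, followed with 45 against 9 reads (0.45, 1.83-fold, 0.882 to 4.25), its ST18 reads at the 99.4th percentile. Below them came 3 proteins of the endoplasmic reticulum and, level with the last of these, the cytosolic Dnajb6. The 3 were Dnajb14 (26 against 8 reads, 0.15, 1.19-fold, 0.522 to 3.04), Dnajb11 (20 against 6, 0.13, 1.22-fold, 0.472 to 3.71) and Dnajb12 (25 against 8, 0.12, 1.14-fold, 0.499 to 2.93).

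At the low end of class B stood Dnajb4, another cytosolic partner of Hsp70, with 13 ST18 reads against 11 input reads (−0.34, 0.432-fold, 0.179 to 1.06). Dnajb5 held 18 against 13 (−0.32, 0.506-fold, 0.234 to 1.12) and Dnajb3, a gene known from the testis, 13 against 10 (−0.29, 0.475-fold, 0.192 to 1.21). These windows held more input reads than the median of 7 and fewer ST18 reads than the median of 20. The interval of Dnajb1 was the only one in class B that excluded 1.

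Class C, the largest class, reached neither 0.58 nor −0.58. Its highest window was that of Dnajc4, with 33 ST18 against 6 input reads (0.42, 2.01-fold, 0.832 to 5.87). Dnajc27, which encodes a Rab-like GTPase with a J domain, held 25 against 4 (0.39, 2.28-fold, 0.789 to 9.03), and Dnajc30, a mitochondrial protein, 29 against 6 (0.34, 1.77-fold, 0.721 to 5.20). Dnajc5 encodes cysteine string protein, which guards synaptic vesicle release, and its window held 27 against 7 reads (0.23, 1.41-fold, 0.599 to 3.83). Dnajc10, an endoplasmic reticulum protein with disulfide reductase domains, held 21 against 5 (0.22, 1.54-fold, 0.563 to 5.21). All 5 intervals include 1.

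The low end of class C held the 2 windows of the family whose interval lay below 1. Dnajc19, a component tied to the motor of mitochondrial protein import, had 10 ST18 reads against 11 input reads (−0.43, 0.332-fold, 0.127 to 0.862). Dnajc9, a co-chaperone of histones H3 and H4, had 23 against 17 (−0.38, 0.495-fold, 0.253 to 0.986). Dnajc16 followed with 15 against 10 (−0.24, 0.548-fold, 0.230 to 1.36). The 2 lowest windows differ in their reads: Dnajc9 had more ST18 reads than the median window and its input reads lay at the 99.3rd percentile, whereas Dnajc19 had fewer ST18 reads than the median window and more input reads. Dnajc11 shows the same of the input: it held 34 ST18 reads, as many as Dnaja3, but 17 input reads against 8, and stood at −0.15 where Dnaja3 stood at 0.31. Over the family, the interval lay above 1 in 2 of 45 windows (4.44%), against 2.37% of all promoters, and below 1 in 2 of 45 (4.44%), against 3.24%. In the other 41 windows the interval included 1, so no enrichment or depletion was detectable in them at this depth. The intervals were not widened for the number of windows read, so some can exclude 1 by counting error alone. An interval that excludes 1 therefore does not by itself establish enrichment or depletion of that window.

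**Figure D3:**
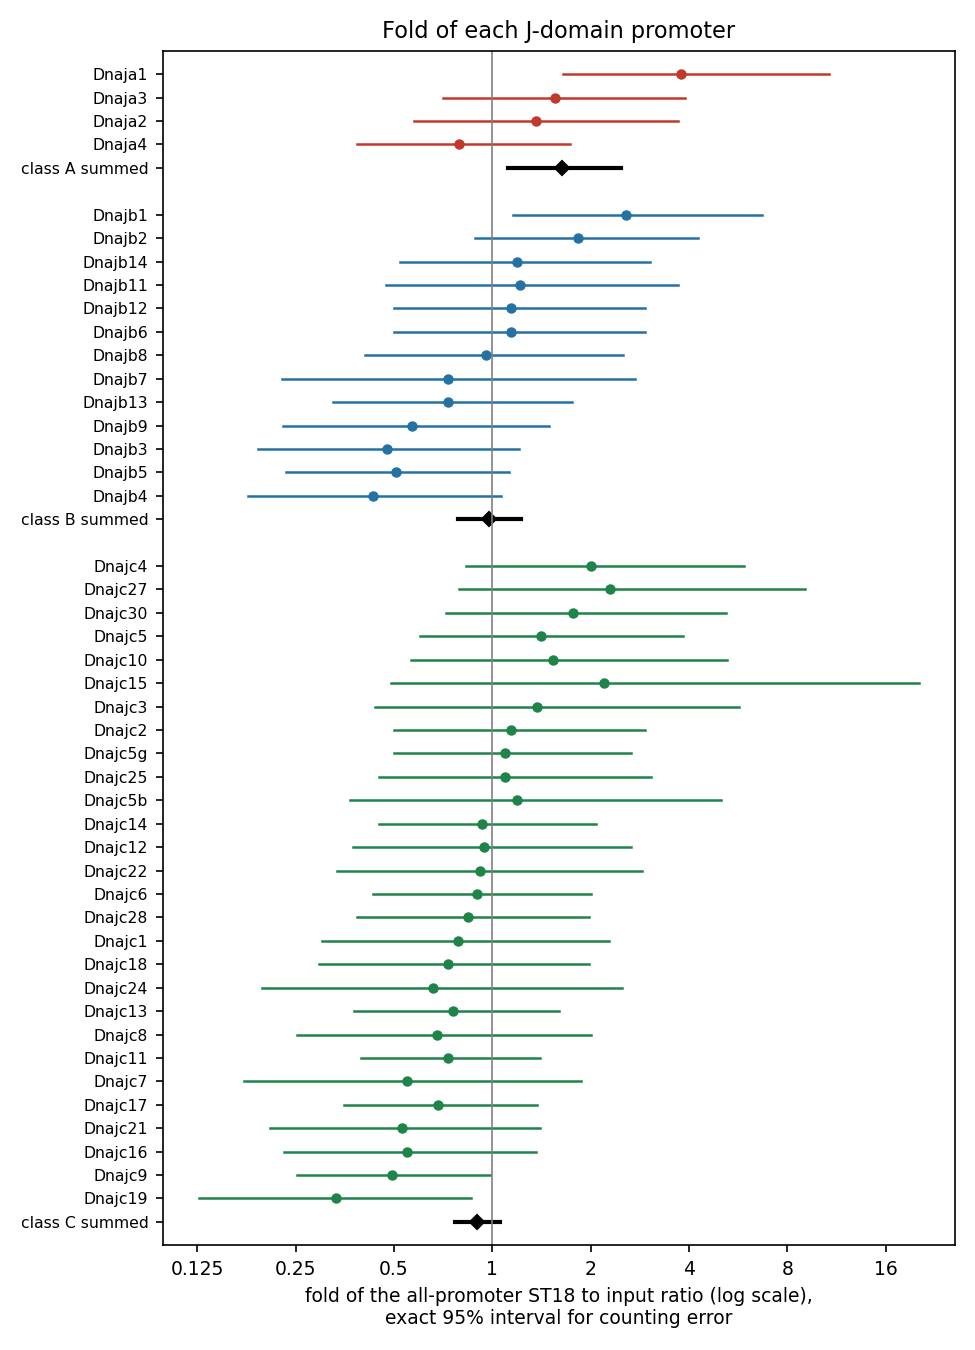
Fold of each J-domain promoter over the ST18 to input ratio of all promoters, on a log scale, with the exact 95% binomial interval, and in black the summed reads of each class. The intervals of Dnaja1 and Dnajb1 lie above 1, those of Dnajc9 and Dnajc19 below 1, and of the summed classes that of class A, at 1.64-fold, excludes 1.

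Grouped by where the proteins work, the 3 genes listed as heat-inducible cytosolic partners of Hsp70 were the most divided. Dnaja1 and Dnajb1 stood at 0.90 and 0.64, and Dnajb4 at −0.34. Dnaja4 (−0.08) was listed with Dnaja2 under other cytosolic class A proteins. Whether the heat-inducible list is complete was not checked. The cytosolic proteins of protein quality control, Dnajb2, Dnajb5, Dnajb6, Dnajc7 and Dnajc12, ranged from −0.32 to 0.45 with a median of 0.02. Dnajb6, known for suppressing the aggregation of polyglutamine proteins, held 25 ST18 against 8 input reads (0.12), the same counts as Dnajb12 and Dnajc2.

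The 11 windows of endoplasmic reticulum proteins lay in a narrow range, −0.24 to 0.22, with a median of 0.09 and a summed fold of 0.951 (0.735 to 1.24). Their lowest was Dnajc16, and Dnajb9, a co-chaperone of the reticulum's own Hsp70, held 14 against 9 reads (−0.21). Dnajc3, an inhibitor of the eIF2α kinases that also acts inside the reticulum, held 15 against 4 (0.14), and Dnajc25 21 against 7 (0.09). Dnajc14 (28 against 11, 0.02), Dnajc1 (15 against 7, −0.06) and Dnajc18 (16 against 8, −0.09) lay close to 0.

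The 7 windows of mitochondrial proteins spanned the range of class C, from Dnajc19 at −0.43 to Dnajc4 at 0.42, with a median of 0.21 and a summed fold of 1.07 (0.791 to 1.45). Dnajc15, which with Dnajc19 is related to the yeast import motor subunit Pam18, held 12 ST18 against 2 input reads (0.21), and with so few input reads its fold of 2.19 had an interval of 0.488 to 20.2. Dnajc28 stood at −0.04 (23 against 10). The 6 proteins of vesicles and endosomes had a median of 0.10 and a summed fold of 1.11 (0.797 to 1.57). Among them Dnajc6, the neuronal auxilin that uncoats clathrin vesicles, held 27 against 11 reads (−0.003), and Dnajc13, which acts on endosomes, 27 against 13 (−0.11). The cysteine string protein relatives Dnajc5g and Dnajc5b stood at 0.11 (27 against 9) and 0.09 (13 against 4).

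The 6 proteins of the nucleus, the ribosome and RNA metabolism had the lowest median of the role groups, −0.15, and a summed fold of 0.665 (0.482 to 0.925) from 111 ST18 against 61 input reads. Beside Dnajc9 these were Dnajc21, a ribosome biogenesis factor (13 against 9, −0.23), Dnajc17 (28 against 15, −0.18), the splicing-associated Dnajc8 (13 against 7, −0.11) and Dnajc24, needed for diphthamide synthesis (9 against 5, −0.10). Of the 6, the ribosome-bound Dnajc2 alone lay above the median of all promoters (25 against 8, 0.12). The interval of Dnajc9 alone lay below 1 and those of the other 5 included 1. The summed fold of this group without Dnajc9 was not computed, so its interval is not shown to lie below 1 without that window. None of the 4 genes listed here under testis and motile cilia lay above the median of all promoters, as 49.6% of all promoters did. Each gene was put in only 1 role group, so the list need not hold every J-domain gene known from the testis. Dnajb8 stood at 0.03 (21 against 8), Dnajb7 at −0.07 (10 against 5), Dnajb13 at −0.11 (20 against 10) and Dnajb3 at −0.29. Their summed fold was 0.709 (0.459 to 1.11), an interval that includes 1. Dnajc7 stood at −0.16 (9 against 6), Dnajc12 at 0.02 (18 against 7) and Dnajc22, whose role is left out here, at 0.01 (15 against 6).

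**Figure D4:**
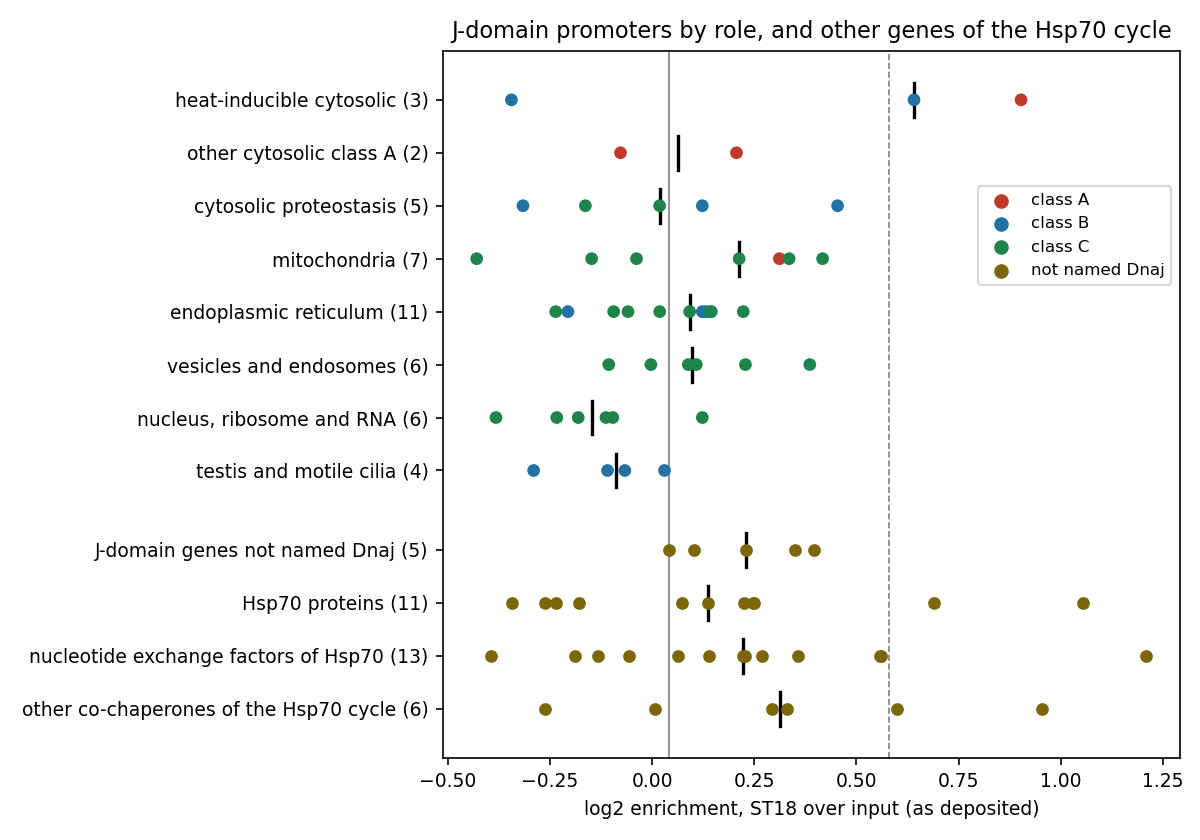
Deposited log2 enrichment of the J-domain promoters by role and, below them, of other genes of the Hsp70 cycle, with the number of windows in parentheses, black ticks at group medians, a grey line at the median of all promoters (0.04) and a dashed line at 0.58. The nucleus, ribosome and RNA group has the lowest median, −0.15, and Dnaja1 and Dnajb1 lie to the right of the dashed line.

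Other genes of the Hsp70 cycle were read at the same threshold, which 1.15% of all promoters reached, and none of them reached −0.58. Of 11 Hsp70 proteins, 2 reached 0.58: Hspa8, the constitutive cytosolic Hsp70 (104 against 12 reads, 1.05), and Hspa9, the mitochondrial Hsp70 (56 against 8, 0.69). Its lowest was Hspa13 (15 against 12, −0.34), and the list median was 0.14. Of the 13 nucleotide exchange factors in the table, which release ADP from Hsp70, Hsph1 reached it (86 against 6, 1.21). Bag2 (44 against 7, 0.56) and Grpel1 (26 against 2, 0.56) were just short. Their folds were 2.30 (1.03 to 6.05) and 4.75 (1.19 to 41.3), the second from only 2 input reads. Hspa4, an Hsp110 protein like Hsph1, was lowest (15 against 13, −0.39) and its fold of 0.422 had an interval below 1 (0.187 to 0.963). The list median was 0.22. Of 6 other co-chaperones and heat shock factors, 2 reached it, St13 at 0.95 and Stip1 at 0.60, and Hsf2 was lowest at −0.26. The 5 J-domain genes not named Dnaj ranged from Pam16 at 0.04 to Sec63 at 0.40, with a median of 0.23, against 0.02 for the 45 named Dnaj, and a summed fold of 1.36 (0.942 to 1.995). The St18 window itself stood at 0.09, with 21 ST18 against 7 input reads.

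Base composition was compared because it varies with read coverage. Of the J-domain genes, 37 of 45 have a RefSeq promoter in the table used, all 4 of class A, all 13 of class B and 20 of 28 of class C. Since 71.4% of class C is below 80%, composition was not compared for class C as a class. Of all 21881 windows 67.1% had a RefSeq promoter, also below 80%, so classes A and B were compared with a part of the table. Taking the most upstream promoter of each gene, the median GC content was 67.3% in class A and 62.3% in class B, against 57.3% over 14683 genes of the table, and the observed over expected CpG ratio had medians of 0.940 and 0.824, against 0.613. Over these 14683 genes the median log2 enrichment was 0.00 in the lowest decile of GC content and 0.07 in the highest, and 0.0681% and 2.18% of windows in these deciles reached 0.58. Read depth differed as well, with medians of 10 ST18 and 4 input reads in the lowest decile and 22 and 8 in the highest. The promoters of Dnaja1, with 72.1% GC as the mean of its 3 RefSeq starts, and of Dnajb1, with 69.5%, lie in the highest decile and the one below it. They stood 0.84 and 0.55 above the median of their own decile. Relative to its deciles, class A had a median of 0.20 and class B one of −0.04.

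**Figure D5:**
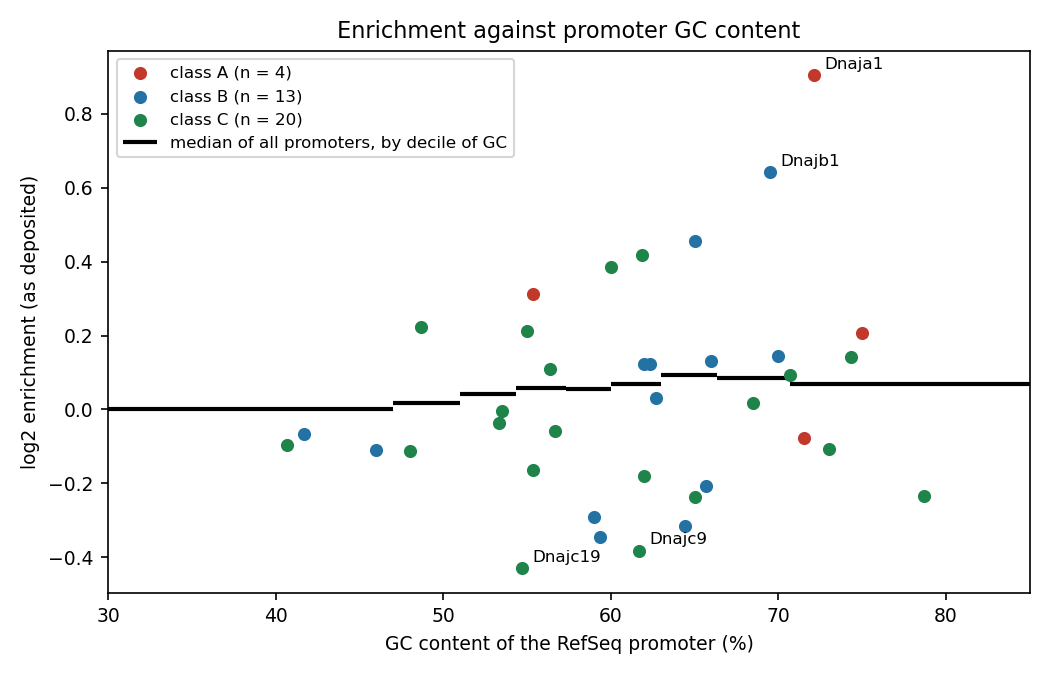
Deposited log2 enrichment of 37 J-domain promoters against the GC content of their RefSeq promoter (mean over its starts), with black bars at the median of all genes with a RefSeq promoter in each decile of GC content; the axis is limited to 30 to 85%. The bars run between 0.00 and 0.09, and Dnaja1 and Dnajb1 lie far above theirs.

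The motifs marked in the sequences were counted in the most upstream promoter of each gene. AAGTT was in 11 of 37 J-domain promoters (29.7%), against 37.0% of the 14683 genes of the table counted in the same way and 39.3% of all 32851 RefSeq promoters, with 2 of 4 in class A (Dnaja2 and Dnaja3), 2 of 13 in class B and 7 of 20 in class C. The J-domain promoters with AAGTT had a median log2 enrichment of 0.11, against −0.02 in the 26 without it, and over all genes of the table the medians were 0.03 with it and 0.05 without it. GAANNTTC or TTCNNGAA was in 5 of 37 (13.5%), against 13.6% of genes of the table and 15.1% of all RefSeq promoters, so the share of the family was close to that of other genes. The 5 were Dnaja1, Dnajb6, Dnajc10, Dnajc27 and Dnajc5g, whose log2 enrichment ranged from 0.11 to 0.90 with a median of 0.22, against −0.06 in the 32 without it. That range depends on the start taken. With any RefSeq start, a count added after the values were seen, Dnaja4 (−0.08) and Dnajb4 (−0.34) also hold these letters. The 7 genes (18.9%, against 15.6% of genes of the table) had a median of 0.12, against −0.05 in the other 30. Over all genes of the table the medians were 0.03 with these letters and 0.05 without them, for the most upstream as for any start. Counted at any start, AAGTT was in 13 of 37 (35.1%, against 40.6% of genes of the table), Dnajb1 among them. Their median was 0.11, against −0.02 in the other 24. A match describes the letters of a window and is not a binding site.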

How the data were processed

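The promoter table was used as the authors deposited it: raw read counts per promoter window of 1000 bp, with 1 window a gene symbol, in an ST18 and an input column, and a log2 enrichment. The submitters' processing notes name Bowtie, MACS2 2.0.10.20120913 and mm9 among tools and builds without a role. How duplicate reads were treated, and where a window lies around the start, is not given in the sources used here. A recomputation of the deposited log2 values from the counts as log2 of (0.406 times ST18 plus 16) over (input plus 16) matched them within 1e-06 in all 21881 windows. The planned count of peaks at windows was not made and the peak list was not used, since windows have no coordinates.

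Folds, intervals and medians were computed with Python 3.11.15, numpy 2.4.6 and scipy 1.17.1, and the intervals were checked on simulated counts. No test was made. With 1 ST18 column, fits over ChIP replicates could not be had. The members, role groups and lists were chosen with earlier results of these data known. Named with fold and interval are all class A genes and the 5 highest and 3 lowest of classes B and C. Dnajc11, Dnajc15 and the comparisons of read columns were picked after their values were seen. No RefSeq promoter was matched for Dnajc2, Dnajc5, Dnajc5b, Dnajc11, Dnajc12, Dnajc18, Dnajc22 and Dnajc30. Neighbouring starts come from RefSeq GRCm38.p6, and no coordinate was converted between builds.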

Additional observations from a re-analysis of the deposited data

How the results depend on the processing

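The alternatives were other pseudocounts, scaling to the promoter totals, a filter of more than 5 input reads, and the all-promoter ratio without olfactory and vomeronasal receptor windows. Where they apply, others were without the highest window, with the 5 other J-domain genes, and relative to the decile of GC content. Under all of them the summed folds of classes A, B and C and of the family stayed within their own 95% intervals. The medians stayed within 95% intervals taken from the ordered values of the windows, which for class A is its whole range. Those intervals treat windows as replicates, so they are a loose yardstick. With a pseudocount of 1 the median of class A went from 0.26 to 0.62, and that of all promoters from 0.04 to 0.12. The fold of class A ranged from 1.16 without Dnaja1, where its interval includes 1, to 1.82 with the input filter. The numbers of windows at 0.58 moved more. The 2 windows of the family became 7 at a threshold of 0.3 (2 in class A, 2 in B, 3 in C), 0 at a threshold of 1 (0 in A and 0 in B), 1 when scaled to the promoter totals, where class B has 0, 5 with a pseudocount of 8 (2 in B, 2 in C) and 9 with a pseudocount of 1 (2 in A, 2 in B, 5 in C). Over all promoters 0.0548% reached 1, 0.608% reached 0.58 with promoter totals, 6.98% with a pseudocount of 8 and 24.1% with a pseudocount of 1, so these changes follow from how the settings are built. At 0.58 the share of the family was larger than that of all promoters as deposited, with promoter totals and with a pseudocount of 8. With a pseudocount of 1 it was smaller, at 9 of 45 against 24.1%. The median of all promoters was 0.00 when scaled to the promoter totals and 0.04 as deposited. Leaving out the 5 genes found to have a neighbouring start, and calling by the interval, were chosen after seeing the data: the family stood at 0.972-fold, and 2 windows were called. No paired analysis was possible because the table has 1 ST18 column that carries no replicate number. Fits without each ChIP replicate were not run for the same reason, and the GC alternative was not run for class C. At a median of 7 input reads, folds under 2.40 would not reach 0.58.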
